A study of Mus musculus with 4 samples.

Results

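The lung line B16-RIIL was compared with B16-RI, the lymph node line that was injected to obtain it. All 33012 probes of the array that are not controls, of 33012 in the series, entered the comparison, which used 2 of the 4 arrays of the series, 1 per line. B16 is a mouse melanoma cell line of the C57Bl6 strain, from which all the lines descend. B16-RI is a culture grown out of lymph node metastases of mice that had carried an intradermal B16F1 tumor until its excision between days 14 and 17, which makes 1 injection round. B16-RIIL comes from lung metastases and B16-RII from lymph node metastases after B16-RI was injected in the same way, so that both stand at 2 rounds. No line received a drug or a transgene, and the labels do not say that a line is a single clone. The cells were grown in 20% serum for up to 10 passages, and per the design text deposited with the series the RNA of a line was pooled from different passage numbers. Because each line has 1 array here, no difference could be tested against the spread between cultures, and no p-value is given. The question is which genes differ between a melanoma line recovered from the lung and the lymph node line it came from.

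Melanoma cells that leave the skin usually enter lymphatic vessels and settle in the first lymph nodes, and cells that reach the blood can seed the lung. In both places the cells meet other matrix proteins, chemokines, oxygen levels and immune cells than in the skin. A line that is grown in a dish again keeps only those differences that persist without the tissue, and it can also carry changes in chromosome number, which are common in B16 cells.

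A probe was taken as detected when its signal-to-noise ratio (S/N) was at least 3 and its flag, a quality score of the analyzer, was at most 5000. By this rule 13872 probes were detected on B16-RI and 14855 on B16-RIIL, with a median raw signal of 451 and 554. Both arrays detected 12431 probes, 2424 were detected on B16-RIIL and not on B16-RI, and 1441 on B16-RI and not on B16-RIIL. Levels are given as the deposited normalized signal, which has no unit, and differences as log2 of B16-RIIL over B16-RI. All 5 melanocyte markers on the array were detected on both arrays, and none differed by 2-fold. Of the markers of alveolar and airway epithelium, 0 of 7 were detected on B16-RI and 1 of 7 on B16-RIIL, which was Scgb1a1, a secretoglobin of airway club cells, at a signal of 2.59 and an S/N of 4.88. The signals of these 7 summed to 7.47 on B16-RI and 5.92 on B16-RIIL. Endothelial markers were detected in 0 of 10 cases on B16-RI and 1 of 10 on B16-RIIL, fibroblast markers in 2 and 3 of 9, macrophage markers in 1 and 1 of 11, and lymphocyte markers in 3 and 4 of 8. Summed signals moved from 9.13 to 6.36 for endothelium, from 24.6 to 25.7 for fibroblasts, from 11.5 to 11.4 for macrophages and from 74.6 to 68.4 for lymphocytes. At least 2-fold higher on B16-RIIL were 1 marker of alveolar and airway epithelium, 1 of fibroblasts and 1 of lymphocytes. No endothelial or macrophage marker was called higher, and no marker of these types was called lower. The part of other cell types in the differences was not tested. In RNA of a whole culture, fewer cells with a transcript and less of it per cell cannot be told apart.

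Most of the array gave like signals in the lung line and in the lymph node line. Among the 12431 probes detected on both arrays the median difference was 0.016, the SD across probes was 0.50, and 94.8% of the probes lay within 2-fold. At least 2-fold higher on B16-RIIL and detected there were 1792 probes, 5.43% of all probes, and at least 2-fold lower and detected on B16-RI were 1344 probes, 4.07%. Where both arrays detected the probe, 378 probes were higher (3.04%) and 264 lower (2.12%), so that 58.9% of these differences were toward B16-RIIL. This share depends on the scaling, as it was 71.4% when each array was divided by its median and 47.8% when divided by its 75th percentile, and no majority in either direction is read from it.

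**Figure D1:**
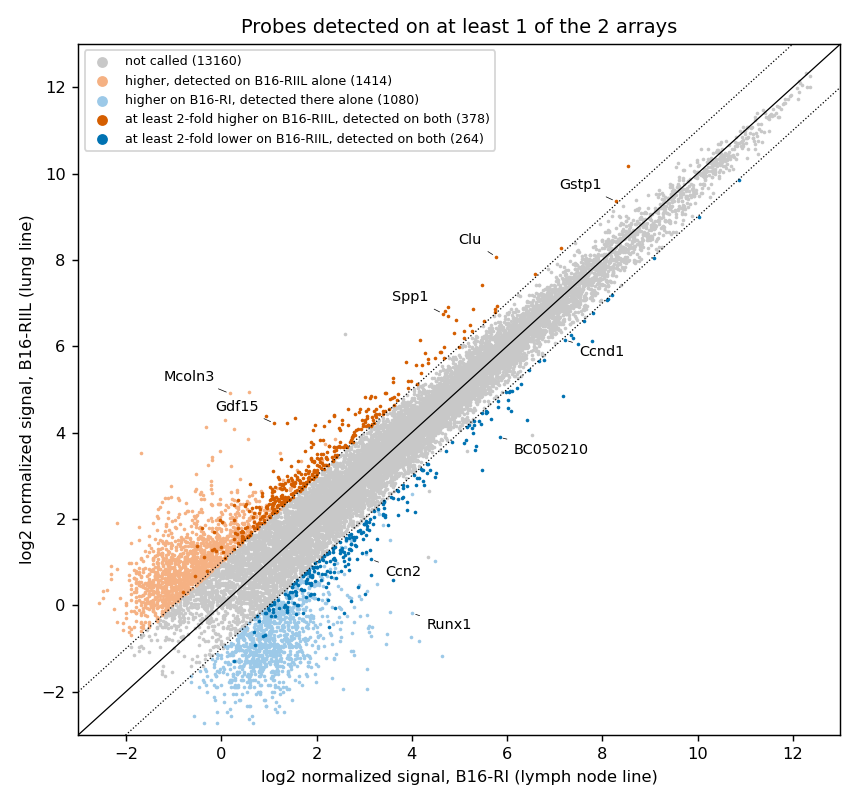
Log2 normalized signal on B16-RI (horizontal) against B16-RIIL (vertical), 1 point per probe detected on at least 1 of the 2 arrays. The solid line marks equal signals and the dotted lines 2-fold; the 378 dark orange and 264 dark blue probes were detected on both arrays, and most of the 1414 pale orange and 1080 pale blue probes sit at low signals on both axes.

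The spread between probes of 1 gene gives a measure of how much a single probe can be relied on, which is not a replicate error. Of 576 genes with at least 2 probes detected on both arrays, the differences shown by the brightest 2 probes lay within 1 log2 unit of each other for 536 (93.1%). Their SD was 0.56 with an S/N of at least 3 and 0.39 over the 364 genes whose probes had an S/N of at least 10. The correlation of both probes' differences was 0.22 across the 576 genes and 0.39 across the 364, as a description across genes of 1 pair of arrays. Of 5 genes whose brighter probe was at least 2-fold higher on B16-RIIL, the second probe had the same sign in 3 and passed 2-fold in 1. Of 8 that were lower, it had the same sign in 7 and passed 2-fold in 1.

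**Figure D2:**
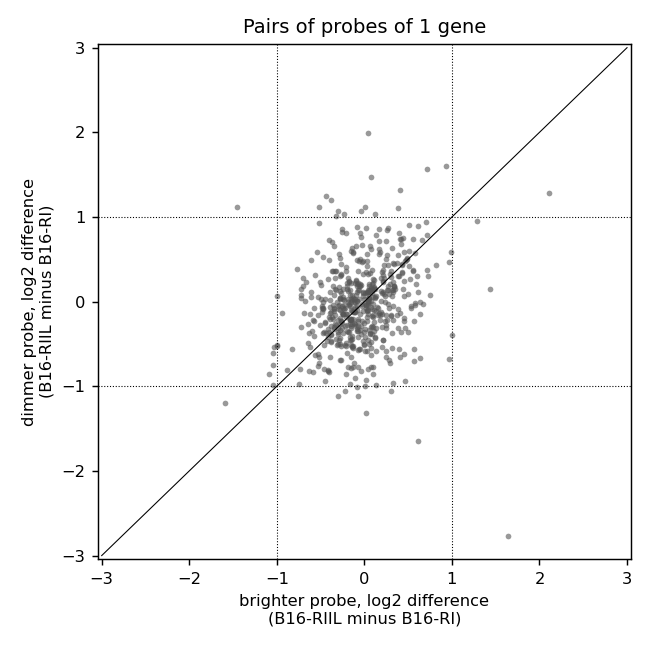
Log2 difference, B16-RIIL minus B16-RI, of the brighter probe (horizontal) and of the dimmer probe (vertical) for the 576 genes with 2 probes detected on both arrays. Dotted lines mark 2-fold and the diagonal equal differences; few genes leave the central square on both axes, and the point at the upper right is Spp1, at 2.11 and 1.28.

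For the counts of genes below, each gene is represented by its brightest probe. Of 9392 genes detected on at least 1 of both arrays, 813 were at least 2-fold higher on B16-RIIL (8.66%) and 538 lower (5.73%). Of the 7827 genes detected on both, 223 were higher (2.85%) and 130 lower (1.66%), with a median difference of 0.042.

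Gdf15, Car9 and Gpr37 led the genes that were higher in the lung line and detected on both arrays. Gdf15 encodes a cytokine of the TGF-beta family that cells release under stress. Its signal was 2.15 on B16-RI and 18.6 on B16-RIIL, beside 13.6 on B16 and 8.55 on B16-RII, so that the lung line was 8.66-fold above its parent and B16-RI was the lowest of the 4 arrays. Car9, carbonic anhydrase IX, a membrane enzyme that is switched on by hypoxia-inducible factors, had a signal of 2.62 on B16-RI and 18.7 on B16-RIIL, 7.15-fold more. On B16 it was at 1.93 and on B16-RII at 10.6, so that both lines of the second round were above B16 and B16-RI. Gpr37, an orphan receptor of the nervous system, was at 2.92 on B16-RI, 4.64 on B16-RII and 20.1 on B16-RIIL, a 6.89-fold difference between the lung line and its parent, and was not detected on B16.

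The promoter of Car9 is shown because its hypoxia response element is a classic one. RefSeq places these 250 bases before the start of the gene at chr4:43506776-43507025 of GRCm38.p6, plus strand. The capitals mark CACGT, the reverse complement of the core ACGTG, at bases 18 to 14 before the start. The core, searched on both strands, occurs in 16.6% of 27025 promoters of this length, and longer motifs such as CACGTG contain it.
Car9: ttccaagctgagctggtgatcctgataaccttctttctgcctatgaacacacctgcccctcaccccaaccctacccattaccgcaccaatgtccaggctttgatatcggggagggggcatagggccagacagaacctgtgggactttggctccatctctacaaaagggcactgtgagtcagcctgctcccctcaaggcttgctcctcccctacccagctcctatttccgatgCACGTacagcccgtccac

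Secreted proteins made up several of the next genes. Clu, clusterin, an extracellular chaperone, was at 54.3 on B16-RI and 270.1 on B16-RIIL, a 4.98-fold difference, with 32.7 on B16 and 122 on B16-RII, so that the signal was higher at every round. The chemokine Ccl5, which attracts T cells and monocytes, was at 3.89 on B16-RI and 18.0 on B16-RIIL (4.62-fold), with 5.35 on B16 and 8.0 on B16-RII. Spp1, osteopontin, the secreted glycoprotein the study is about, gave 25.1 on B16-RI, 82.8 on B16-RII and 108.2 on B16-RIIL with its brighter probe, and was not detected on B16. The lung line was 4.30-fold above B16-RI. A second Spp1 probe, also not detected on B16, gave 3.57, 10.2 and 8.67, a 2.43-fold difference, so both probes were past 2-fold and their order of B16-RII and B16-RIIL differed.

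The other members of this group have roles inside the cell or at its surface. Kit, the receptor for stem cell factor on which melanocytes depend, was at 4.80 on B16-RI and 19.3 on B16-RIIL (4.01-fold), and at 5.16 on B16 and 9.18 on B16-RII. Banp, which encodes a nuclear protein that binds DNA, was at 27.0 and 120.3 (4.46-fold), with 82.5 on B16. Kdelr3, a receptor that returns proteins to the endoplasmic reticulum, was at 3.79 and 16.8 (4.43-fold). These genes had an S/N of at least 7.04 on both arrays. Fitm1, a protein of fat storage, was at 2.38 and 10.5 (4.40-fold) and Espn, the actin-bundling protein espin, at 2.11 and 8.64 (4.09-fold), both with a B16-RI signal close to the detection limit. Vmn1r42, a vomeronasal receptor, was at 1.21 and 4.98 (4.12-fold), and since this family holds near-identical copies, its identity is uncertain.

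Among the genes lower in the lung line, Ccn2 and a group of dim genes led. Ccn2, connective tissue growth factor, a matricellular protein, was at 8.85 on B16-RI and 2.09 on B16-RIIL, 4.23-fold lower, and at 2.15 on B16 and 5.33 on B16-RII, so that the lung line was at the level of B16. Chrm4, a muscarinic acetylcholine receptor, was at 5.93 on B16-RI and 0.89 on B16-RIIL (6.66-fold lower). It was not detected on B16 or B16-RII, so B16-RI was the array that stood apart. Qsox1, an enzyme that forms disulfide bonds in secreted proteins, was at 5.22 and 0.95 (5.49-fold lower), with 2.38 on B16 and 2.08 on B16-RII.

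A different order was seen for genes that were low on B16-RIIL alone. BC050210, listed by the file without a further name, was at 57.4 on B16-RI and 14.8 on B16-RIIL (3.88-fold lower), with 39.4 on B16 and 50.9 on B16-RII. Tmem183a, a transmembrane protein, was at 9.70 and 2.88 (3.37-fold lower), with 10.7 on B16 and 11.0 on B16-RII. Rpusd2, related to pseudouridine synthases, was at 4.70 and 1.43 (3.29-fold lower), with 3.74 and 4.77 on B16 and B16-RII. For these 3 genes the lung line stood apart, while the other arrays were within 2-fold of each other. Another 5 genes that the naming rule selects were Spata3, Tspan33, Klhl15, Mustn1 and Edar, the receptor of ectodysplasin. They were at 4.56 to 8.72 on B16-RI and 1.09 to 2.43 on B16-RIIL. For these 5 genes B16-RI was the highest of the 4 arrays. B16 did not detect Spata3, Tspan33, Klhl15 or Mustn1, and Tspan33 was at 1.52 on B16-RII, below the lung line.

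**Figure D3:**
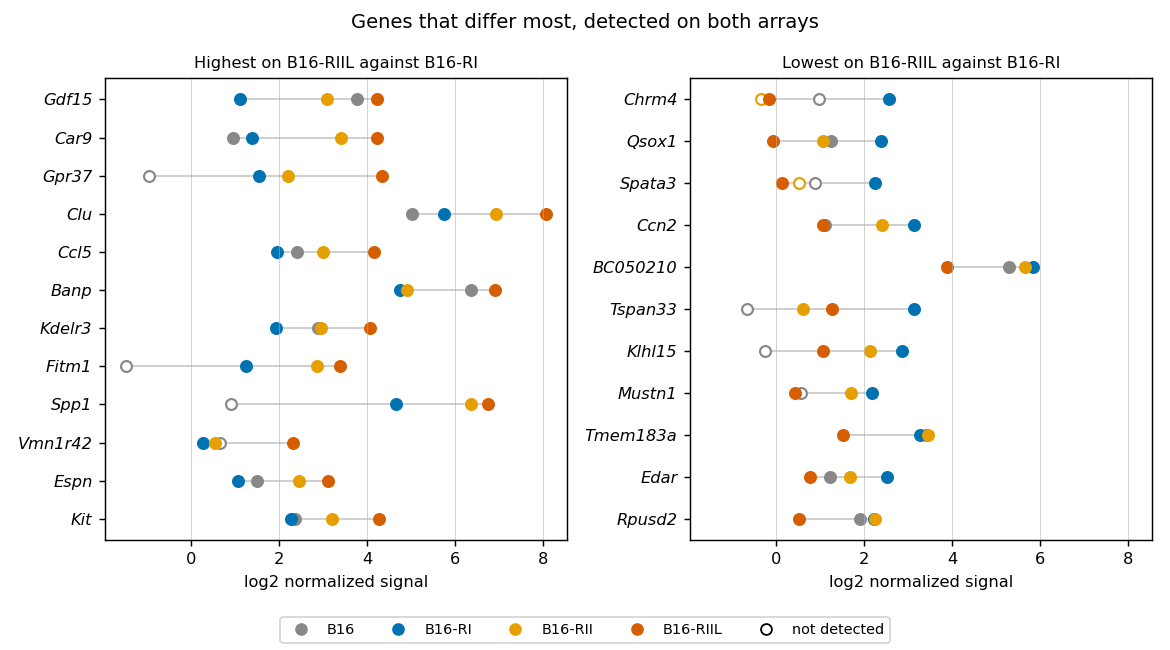
Log2 normalized signal of the named genes with the largest positive (left) and negative (right) difference between B16-RIIL and B16-RI among genes detected on both, with 1 point per array and open points where the probe was not detected. B16-RI is the lowest point for Gdf15, Ccl5, Banp, Kdelr3, Vmn1r42, Espn and Kit, and the highest for all genes on the right but Tmem183a and Rpusd2.

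Detection on 1 side alone gave most of the 2-fold differences. On B16-RIIL 1414 probes were at least 2-fold higher and not detected on B16-RI (4.28%), and 1080 were at least 2-fold lower and not detected on B16-RIIL (3.27%). Most were dim, with a median S/N of 4.74 and 4.23 on the array that detected them. An S/N of at least 10 was reached by 102 of the 1414 and 40 of the 1080. Of these 102, B16-RII detected 71, B16 detected 52, and neither detected 24, whereas 22 of the 40 were seen on B16-RI and on no other array. A fold change of such a probe was taken with the dimmer side set to no less than the faintest signal that its array detected. That floor was 0.42 on B16-RI and 0.32 on B16-RIIL. The words 'at least' before such a fold change mark this setting and not a strict bound. An undetected probe can read well above the floor, as Ddit4 did at 2.34 on B16-RI, and its true level is uncertain. Another 20 of the 1414 and 9 of the 1080 probes failed the flag limit on the dimmer array, where not detected does not mean dim. None of the genes named here is among them.

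Cxcl11 was seen in the lung line and on no other array. It encodes a ligand of the receptor Cxcr3 that interferon induces, and its reading frame is disrupted in the C57BL/6 strain. The signal was 19.7 on B16-RIIL with an S/N of 43.1, at least 18.8-fold higher than on B16-RI, and 0.40 to 1.05 on the other arrays, where it was not detected. Ccr2 and Cxcl12, likewise seen on this array alone, were dimmer and are given with their list.

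Cxcl11 is 1 of the 8 genes with the highest S/N among those detected on B16-RIIL and not on B16-RI, and the rest of these 8 were also detected on B16-RII. Mcoln3, an endolysosomal cation channel known for its coat colour mutants, was at 30.0 on B16-RIIL and 7.73 on B16-RII, at least 26.5-fold above B16-RI. Fbp2, the muscle fructose bisphosphatase, was at 17.6 and 6.17, at least 22.0-fold above. Apobec2, a muscle member of a deaminase family, was at 30.7 and 17.7, at least 20.4-fold above, though its S/N of 2.98 on B16-RI missed the detection limit by little. Its second probe gave at least 8.88-fold, and was detected on B16 too, at 1.09 with an S/N of 3.03. Bcas1, a gene of myelinating cells, was at 9.41 and 10.7, at least 8.11-fold above B16-RI. BC030183, unnamed further, was at 7.34 and 2.99, at least 8.53-fold above. Zfp316 and Lysmd2 were detected on B16 too, and were at least 5.89-fold and 2.07-fold above B16-RI.

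Of the 8 genes with the highest S/N among those detected on B16-RI and not in the lung line, 6 were seen on B16-RI alone of the 4 arrays. Runx1, a transcription factor of blood cell development, was at 16.1 on B16-RI and at least 18.3-fold lower on B16-RIIL. Mertk, a receptor tyrosine kinase that takes part in clearing dead cells and belongs to the family of Axl, was at 5.67 with an S/N of 25.5 and at least 10.1-fold lower. Nwd1 was at 6.95 (at least 15.4-fold lower), Tex19.1, a germ cell gene, at 5.01 (at least 5.11-fold), BC027072 at 3.62 (at least 8.42-fold) and the olfactory receptor Olfr368, whose family holds near-identical copies, at 6.82 (at least 14.2-fold). The other 2 were Hoxb8 and Defb1. Hoxb8, a homeobox gene, was at 5.57 on B16-RI, at least 5.74-fold above B16-RIIL, and its second probe was detected on neither of the arrays compared. Defb1, a defensin, was at 3.24, at least 2.66-fold above, and was detected on B16 and B16-RII as well.

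The gene lists give the processes to which such genes belong. The 17 lists hold 314 genes, of which 287 were on the array and 205 were detected on at least 1 of both arrays, and of these 23 were at least 2-fold higher (11.2%) and 10 lower (4.88%). Over all genes detected on either array these shares were 8.66% and 5.73%, and over genes detected on both arrays 2.85% and 1.66%. Most detected list members were detected on both arrays, so the lists as a whole are not read as near the background. The counts of single lists rest on few genes and are to be set beside these shares. Members within 2-fold that are given with values were chosen after their values were seen. List medians below are over members detected on both arrays and stand beside the median of 0.042 over all genes. Lysmd2, Sparcl1, Col4a1, Fgf2, Gstp1 and Spry1 lay so close to 2-fold that at least 1 other scaling put them under it.

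Pigment genes hardly differed, and the receptor Mc1r was the exception. Of 14 melanosome and pigment genes, all detected on both arrays, 1 was higher and 0 lower, with a median of 0.085. Mc1r, the receptor for melanocyte-stimulating hormone, was at 24.3 on B16-RI and 58.2 on B16-RIIL (2.40-fold), with 27.0 on B16 and 29.3 on B16-RII, so that the lung line stood above 3 arrays with like values. The melanin enzymes stayed within 2-fold, at 3355 and 2966 for Tyrp1, 2425 and 2684 for Dct, and 8.80 and 10.1 for Tyr. Of 5 detected regulators of melanocytes, Kit was 2.01 log2 units higher, while Mitf, the master transcription factor, was at 5.20 and 5.96 and Pax3 at 31.2 and 41.3. Mrap, an accessory protein of melanocortin receptors, was at 8.08 on B16-RI, 20.8 on B16-RII and 28.3 on B16-RIIL (3.50-fold) and not detected on B16.

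The promoter of Mc1r, at chr8:123406832-123407081 of GRCm38.p6 on the plus strand, is printed with CATGTG and its reverse complement CACATG in capitals. CATGTG is the core of the M-box that Mitf binds. It lies at bases 51 to 46 before the start, and on the other strand at bases 62 to 57. Of 27025 promoters, 12.2% hold it on either strand, so a match says little by itself.
Mc1r: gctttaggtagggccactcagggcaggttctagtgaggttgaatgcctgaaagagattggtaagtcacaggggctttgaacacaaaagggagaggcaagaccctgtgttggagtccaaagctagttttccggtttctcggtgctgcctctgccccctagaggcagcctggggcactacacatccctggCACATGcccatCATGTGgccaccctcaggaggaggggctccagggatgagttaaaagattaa

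Matrix and adhesion genes went in both directions. Of 7 detected secreted matricellular proteins, Spp1 and Sparcl1 were higher, and Ccn2 and Ccn4 lower. Sparcl1, an anti-adhesive relative of Sparc, was at 53.7 on B16-RI and 112 on B16-RIIL (2.08-fold), with 110.1 on B16-RII. Ccn4 was at 64.6 and 23.9 (2.71-fold lower), while its relative Ccn1 was at 43.1 and 46.8. Fn1, fibronectin, was at 33.0 and 19.6 and Sparc at 140 and 112, both within 2-fold.

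Among integrins, Itga4, the alpha chain of the receptor for Vcam1, was at 2.10 on B16-RI and 5.05 on B16-RIIL (2.40-fold), with 10.0 on B16. Its second probe was not detected on any array. Itgb3, a chain of the osteopontin receptor, was at 3.48 on B16-RI and not detected on the other arrays, at least 4.83-fold lower in the lung line. Itga9, another chain that binds osteopontin, was at 5.55 and 5.87. Cdh1, E-cadherin, was at 1.62 on B16-RIIL with an S/N of 3.71, at least 3.86-fold above B16-RI, and Snai1, a repressor of Cdh1, was at 1.29 on B16-RI with an S/N of 3.73, at least 3.79-fold lower in the lung line. Both signals sit just above the detection limit. Vim, Cdh2 and Cd44 were within 2-fold.

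The list of collagens and laminins and that of proteases each held 1 or 2 members past 2-fold. Col4a1, a chain of type IV collagen, was at 9.18 and 18.7 (2.04-fold), while Col4a2, its partner chain, was at 27.7 and 27.9. Plat, tissue plasminogen activator, was at 2.18 on B16-RIIL and at least 4.54-fold above B16-RI, and its signal on B16 was 3.52. Of 12 detected members of the protease list 2 were higher and 0 lower, beside 8.66% and 5.73% over all genes detected on either array. Mmp14, Ctsb and Timp1 were within 2-fold, and the list median was -0.041. None of 6 detected genes from published lung metastasis signatures differed by 2-fold, and their median was -0.13.

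Genes that interferon induces were mostly above the line of equal signal. Of 9 detected on both arrays, 8 were above 0, with a median of 0.52, which was 0.42 to 0.58 under the other scalings. Over all genes 4243 of 7827 were above 0. Only Irf9, a subunit of the complex that carries the type I interferon signal, passed 2-fold. It was at 4.21 on B16-RI and 10.0 on B16-RIIL (2.38-fold), beside 6.66 on B16 and 8.41 on B16-RII. Irf1 was at 4.43 and 8.43, Isg15 at 4.62 and 7.46 and Mx1 at 2.57 and 2.16. For Irf9 and Irf1, B16-RI was the lowest of the 4 arrays. Tap1 and Tap2, which carry peptides to MHC class I molecules, were detected on B16-RIIL alone at 1.41 and 2.95, at least 3.36-fold and 4.10-fold above B16-RI. Psmb9, a subunit of the immunoproteasome that lies next to them on chromosome 17, was detected on B16-RI alone at 1.73 with an S/N of 3.48, at least 4.44-fold lower in the lung line.

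Of the chemokine list, 3 of 7 detected genes were higher and 1 lower, beside 8.66% and 5.73% over all genes. Besides Ccl5, these were Ccr2, a receptor of monocytes, at 2.71 on B16-RIIL (at least 5.65-fold), Cxcl12 at 2.13 (at least 3.13-fold, with a second probe that no array detected) and Ccl2, a ligand of Ccr2, at 1.18 on B16-RI (at least 3.58-fold lower). These 3 had an S/N of at most 5.08 where detected and were seen on 1 array of 4. Cxcl10, another interferon-induced ligand of Cxcr3, was bright and alike, at 254 and 213.

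Growth factors of vessels included Vegfa, which was at 2.39 on B16-RI and 5.59 on B16-RIIL (2.34-fold), with 8.60 on B16 and 3.46 on B16-RII. Its second probe gave 2.29 and 2.47 and was not detected on B16-RI, so the probes differed. Vegfc, which drives the growth of lymphatic vessels, was at 13.4 and 20.3, within 2-fold. Fgf2 was at 1.08 on B16-RIIL, at least 2.08-fold above B16-RI. In the list of hypoxia and glycolysis, Car9 was higher and Pfkp, a phosphofructokinase, lower, at 38.9 and 15.9 (2.45-fold lower), while B16 and B16-RII were within 2-fold of B16-RI. The other 17 detected members, with Slc2a1, Pgk1, Ldha and Bnip3 among them, lay within 2-fold, so that the difference of Car9 was not one of the list, whose median was 0.074. Respiratory chain and tricarboxylic acid cycle genes had a median of -0.12, with 8 of 20 above 0, and 1 of 22 was past 2-fold, the dim Ndufa4.

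**Figure D4:**
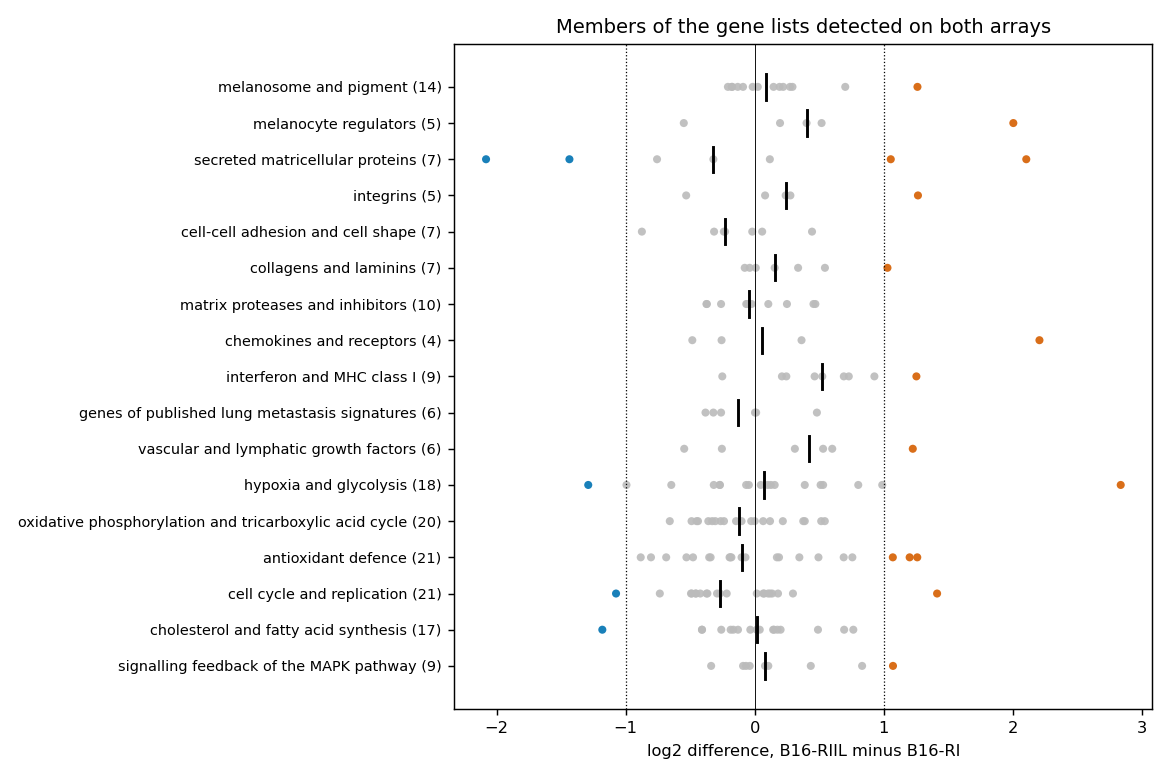
Log2 difference, B16-RIIL minus B16-RI, of every gene of the 17 lists detected on both arrays, with 1 point per gene, a black bar at each list's median and dotted lines at 2-fold. In parentheses is the number of genes plotted; orange points are at least 2-fold higher, blue points at least 2-fold lower, and the interferon list has the highest median, at 0.52.

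Antioxidant and cell cycle genes each held a few members that differed. Slc7a11, the cystine transporter that feeds glutathione synthesis, was at 2.40 on B16-RI and 5.75 on B16-RIIL (2.40-fold). Gsta4 was at 8.94 and 20.6 (2.30-fold) and Gstp1 at 312 and 655 (2.10-fold), both enzymes that join glutathione to toxic compounds. All 21 detected genes of the list were detected on both arrays. Slc7a11, Gsta4 and Gstp1 were higher and 0 lower, beside 2.85% and 1.66% over all genes detected on both arrays. The list median was -0.10, with Hmox1 at 102 and 172 and Srxn1 at 38.7 and 22.2. Cdkn1a, the cyclin-dependent kinase inhibitor p21, was at 29.8 on B16-RI and 79.3 on B16-RIIL (2.67-fold), and cyclin D1, Ccnd1, at 149 and 70.8 (2.11-fold lower). For both genes the lung line stood apart, as B16 and B16-RII were at 31.3 and 38.0 for Cdkn1a and at 128 and 131 for Ccnd1. The cell cycle list had the second lowest median, -0.27, with 9 of 21 members above 0. Its replication genes Pcna (504 and 358), Mcm3 (274 and 200) and Mcm5 (728 and 791) were within 2-fold. Insig1, a brake on cholesterol synthesis, was at 78.5 and 34.6 (2.27-fold lower), while Hmgcs1 and Sqle were within 2-fold. Spry1, a feedback inhibitor of receptor tyrosine kinase signalling, was at 6.51 and 13.7 (2.10-fold).

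The amino acid and endoplasmic reticulum stress genes that follow were chosen after their values were seen. Chac1, which breaks down glutathione, was at 17.9 on B16-RI and 71.1 on B16-RIIL (3.96-fold), with 82.4 on B16 and 46.9 on B16-RII. Trib3, a pseudokinase that Atf4 induces, was at 14.7 and 49.6 (3.38-fold), with 54.4 and 42.8 on the others. Ddit3, the transcription factor CHOP, was at 18.5 and 47.3 (2.56-fold), with 64.6 and 37.1. For Chac1, Trib3 and Ddit3, B16-RI was the lowest of the 4 arrays and the lung line was below B16. Ddit4, an inhibitor of mTOR signalling, was at 11.6 on B16-RIIL, at least 4.94-fold above B16-RI, and at 14.9 on B16, and was detected on neither B16-RI nor B16-RII. Slc7a5, an amino acid transporter whose gene lies on chromosome 8, was at 55.1 on B16-RI and 121 on B16-RIIL (2.20-fold). It was at 48.8 on B16 and 77.9 on B16-RII, so that here B16 was the lowest. At least 1 other scaling put Slc7a5 under 2-fold. Atf4 itself was at 388 and 454, and Asns, Atf3 and Sesn2, which it also induces, were within 2-fold.

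The promoters of Chac1 and Slc7a11 are shown because both genes are known targets of Atf4. Capitals mark TGATGNAA, the composite element that Atf4 binds with a partner, or its reverse complement. Chac1, at chr2:119350992-119351241 of GRCm38.p6 on the plus strand, holds it at bases 193 to 186 before the start on the other strand. Slc7a11, at chr3:50443614-50443863 on the minus strand, holds it at bases 66 to 59 on the gene's strand and 47 to 40 on the other. Of 27025 promoters, 3.53% hold the motif on either strand.
Chac1: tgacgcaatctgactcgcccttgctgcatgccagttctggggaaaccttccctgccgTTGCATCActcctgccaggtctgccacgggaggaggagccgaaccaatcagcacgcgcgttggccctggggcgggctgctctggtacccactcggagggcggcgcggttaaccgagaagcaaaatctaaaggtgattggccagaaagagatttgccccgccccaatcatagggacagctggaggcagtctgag
Slc7a11: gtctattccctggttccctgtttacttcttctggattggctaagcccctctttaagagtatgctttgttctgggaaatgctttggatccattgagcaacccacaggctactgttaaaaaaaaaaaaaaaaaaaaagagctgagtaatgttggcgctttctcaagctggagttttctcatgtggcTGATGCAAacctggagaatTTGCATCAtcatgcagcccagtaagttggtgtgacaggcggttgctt

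Genes of chromosome 8 were higher as a group in the lung line. The 423 genes of chromosome 8 detected on both arrays had a median difference of 0.37, 0.33 above that of all genes, and 351 of them (83.0%) were above 0. Under the other scalings and a stricter detection filter their median stayed 0.32 to 0.34 above all genes. At least 2-fold higher were 33 of the 423 (7.80%) and lower 3 (0.709%), against 177 of 7032 higher on all other chromosomes (2.52%). Chromosome 8 thus held 15.7% of the higher genes with a known chromosome and 5.67% of those detected. When the chromosome was cut, in the order of the RefSeq table, into 4 stretches of 105 or 106 genes, the medians were 0.31, 0.37, 0.38 and 0.42, so that the difference ran along its whole length.

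Against the same B16-RI array, chromosome 8 lay 0.030 above all genes on B16-RII and 0.019 below on B16. These comparisons share the B16-RI array with the main one. Next highest of the 20 chromosomes was chromosome 15, at 0.093 above all genes. Chromosomes 2 and 6 were lowest, at 0.21 and 0.17 below all genes, with 35.6% and 36.7% of their 598 and 398 genes above 0.

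Several genes named above lie on chromosome 8, among them Gdf15, Banp, Mc1r, Col4a1, Cdh1 and Plat, which are 6 of the 40 named higher genes with a chromosome. Nwd1 and Defb1, of 27 named lower genes with a chromosome, lie there too. The following genes of the chromosome were chosen after their values were seen. Hgsnat, a lysosomal enzyme, was at 372 on B16-RI, 403 on B16-RII and 1153 on B16-RIIL (3.10-fold). Fanca, a DNA repair protein of the Fanconi anemia pathway, was at 12.2, 16.9 and 38.2 (3.13-fold), and Herpud1, a protein of endoplasmic reticulum stress, at 38.9, 54.3 and 117 (2.99-fold). Trhr2, Rpgrip1l and Spire2 were the 3 lower genes. Whether DNA copies of the chromosome differ was not measured on these arrays.

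**Figure D5:**
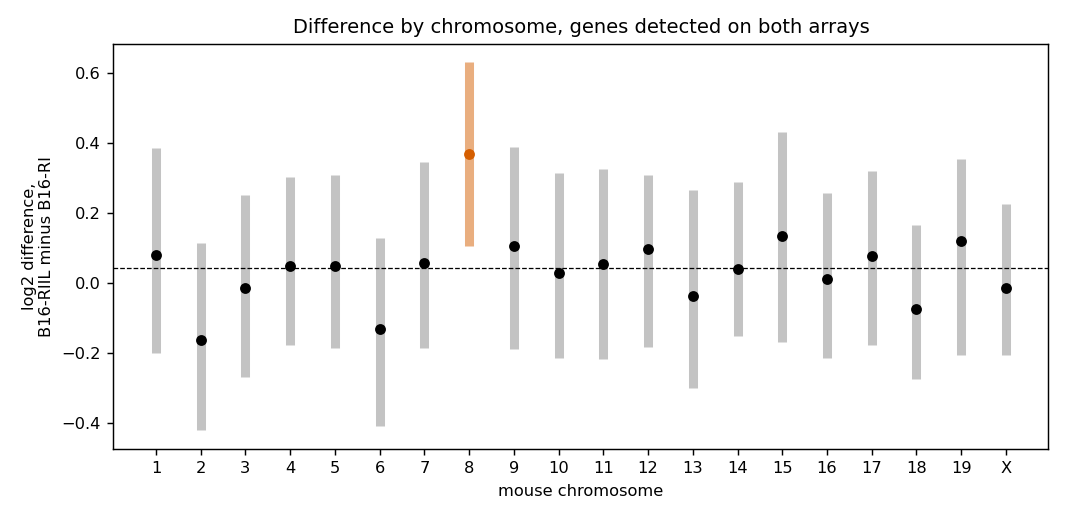
Log2 difference, B16-RIIL minus B16-RI, of genes detected on both arrays by mouse chromosome; points are medians, bars run from the lower to the upper quartile, and the dashed line is the median of all genes, 0.042. Chromosome 8, in orange, has the highest median, 0.37, and chromosomes 2 and 6 the lowest, at -0.16 and -0.13.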

How the data were processed

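RNA of 4 mouse melanoma lines was measured on Applied Biosystems arrays, and B16-RIIL and B16-RI, 1 array each, were compared. The authors deposited raw and normalized chemiluminescence intensity values for 33012 probes. Dividing one by the other showed that the normalized intensity deposited by the authors is the raw value over 1 of 2 constants per array, for sets of 16524 and 16488 probes, and is not quantile normalized, the method the study names. The deposited S/N and flag are scores of the analyzer. Of the columns, 16 were used. Another 20 per-sample columns and 10 ratios belong to second arrays that match no labelled sample, and 14 columns hold log2 values and ratios derived by the authors; none of these was used. Log2 of the normalized signal was taken with no pseudocount, and a probe at least 2-fold brighter on 1 array counted when that array detected it.

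Named genes were the 12 with the largest difference in each direction among genes detected on both arrays, the 8 with the highest S/N detected on either array alone, up to 3 per list and direction, and those of the study's own ranking of probes; all other genes given with values, such as list members within 2-fold, were chosen after their values were seen. Some genes that this rule selects are not reported here. The members, lists and tests were chosen with earlier results of these data known, the difference of chromosome 8 and the second-round genes among them. Alternatives were 4 other scalings (quantile, median, 75th percentile, centring of each probe set), other detection filters, other size limits and a mean over probes. Of 17302 probes with a symbol, 16186 matched the RefSeq table of GRCm38.p6, the source of names, chromosomes and promoters; no genome build is named by the file, so no other coordinates are given. The counting code was run on simulated data with large known changes in bright probes and the same detection on every array. This checks the code, not the reliability of the counts or the calls that rest on detection on 1 array alone. Python 3.11.15, numpy 2.4.6, pandas 2.3.3 and matplotlib 3.10.9 were used. Precision is limited by the number of arrays, 1 per line.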

Additional observations from a re-analysis of the deposited data

How the results depend on the processing

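The counts depended on the filters more than on the scaling. With an S/N of at least 5, 990 probes were at least 2-fold higher and 568 lower, of which 213 and 137 were detected on both arrays and 777 and 431 on 1 alone. Without a detection filter 2676 probes were higher and 3803 lower, so that 41.3% were higher, against 57.1% with it. At a limit of 4-fold, 355 were higher and 487 lower, 18 and 13 on both arrays and 337 and 474 on 1 alone. At 1.5-fold, 3198 were higher and 2381 lower, 1340 and 1103 on both arrays. The share of higher probes among those detected on both arrays that differed by 2-fold was 58.9% with the deposited values, 53.4% after quantile normalization, 71.4% with median scaling, 47.8% with 75th percentile scaling and 48.9% with each probe set centred. The median of all probes detected on both arrays moved from 0.016 to between -0.068 and 0.10. Under the other scalings these counts stayed within 1.5 times the values in the report, and no named gene past 2-fold changed its direction. List medians near 0 (collagens and laminins, proteases, chemokines, hypoxia and glycolysis, cholesterol synthesis and MAPK feedback) changed sign under at least 1 scaling. Of 70 named genes past 2-fold, 7, with Lysmd2, Sparcl1, Col4a1, Fgf2, Gstp1 and Spry1 among them, went under 2-fold in at least 1 other scaling. No paired analysis was possible because each line has 1 array here, and no replicate could be left out for the same reason. Low signal over background limits the probes detected on 1 array alone, of which 794 of 1414 and 739 of 1080 had an S/N under 5.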
